A study of Ovis aries with 30 samples.

Results

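The 10 circadian clock genes CLOCK, NPAS2, PER1, PER2, PER3, CRY1, CRY2, NR1D1, NR1D2 and DBP were followed in the livers of 30 lambs, and neither prenatal biosolids exposure nor sex moved any of them past the test across all genes. The genes were taken by name from a table of 31304 gene rows, in which all 10 were present, and all 10 were among the 17840 genes that passed the filter on low counts. Between lambs the same genes varied up to 6.56-fold. NR1D1 and NR1D2 varied together, PER2 and PER3 varied together, and NR1D1 ran against BMAL1 by Pearson's r, but not against NPAS2.

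The circadian clock is a transcriptional feedback loop present in almost every cell. CLOCK or its paralogue NPAS2 pairs with BMAL1 and switches on the PER and CRY genes, whose proteins then block the same pair. A second loop runs through NR1D1 and NR1D2, the nuclear receptors REV-ERB alpha and beta, which bind heme and repress BMAL1 and NPAS2, while DBP is a PAR-bZIP transcription factor that carries the rhythm to output genes. In the liver these outputs include bile acid, lipid and glucose metabolism, and feeding and glucocorticoids can set PER1 directly.

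Each lamb belonged to the first generation (F1) of sheep whose mothers grazed control pasture or pasture treated with biosolids, which are processed sewage sludge used as fertiliser, before conception and during gestation. There were 8 control females, 8 biosolids females, 7 control males and 7 biosolids males, each identified by its tag number. The sources used here give no breed, age, hour of sampling, time since feeding or litter. Control and biosolids tags come from separate number ranges, and a difference of flock or of handling day therefore cannot be told apart from one of exposure. The samples were whole liver, in which fewer cells of a type and less RNA per cell cannot be told apart. Where lambs shared a mother, p-values for exposure would be too small.

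Sequencing depth ran from 18.7 to 51.9 M counts (M, mega) in a library. Biosolids male 8778 stood apart because 87.5% of its counts were ribosomal RNA, against 0.299 to 7.69% in the other libraries. This left 2.34 M other counts, among them 7 for NPAS2, 9 for CRY1 and 33 for NR1D1. Control female 8263 had the lowest median rank correlation with the other libraries, at 0.943. The library labelled control male 8408 held the X-linked transcript LOC101112291 at 322 CPM (counts per M counts of the library, here without ribosomal RNA), where the other males had at most 2.16 and females 318 to 1080. For the clock genes, fold changes and correlations that rest on these 3 libraries are given with and without them below. Correlations with cell type markers are given without 8778 only. Fold changes of genes on the other lists are given with all libraries only. In the other 29 libraries the lowest count of any clock gene was 55, for CRY1. Of the 6 hepatocyte markers 5 were measured, and they summed to between 48900 and 99700 CPM in each library.

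Per kilobase of annotated exon, DBP was the most abundant of the clock genes, at 38.5 ± 14.5 CPM per kb (mean ± SD, n = 30 lambs). PER1 followed at 16 ± 4.05, CRY2 at 15.0 ± 3.99 and NR1D1 at 14.4 ± 5.09 CPM per kb, and these neighbours lay within each other's spread. The next pair, NR1D2 at 8.48 ± 1.71 and PER2 at 7.17 ± 2.53 CPM per kb, did not differ beyond their spread either. PER3 stood at 3.42 ± 1.08 CPM per kb, below PER2 by more than the SD of either. The activators came low in the order, CLOCK at 1.37 ± 0.252 and NPAS2 at 1.18 ± 0.253 CPM per kb, again within each other's spread, and their partner BMAL1 stood at 0.963 ± 0.369 CPM per kb. CRY1 was last at 0.132 ± 0.0559 CPM per kb. Its place is uncertain, because 25.3% of its 24615 exonic bases are shared with MTERF2 on the same strand and 42.2% with LOC132659467 on the opposite strand, both listed with 0 counts in every library. The whole order rests on annotated exon lengths, from 1851 bases in NR1D1 to 24615 in CRY1. In CPM alone PER1, at 144 ± 36.6, stood above DBP, at 79.3 ± 29.9. NR1D2, at 95.8 ± 19.3 CPM, lay within the spread of DBP.

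**Figure D1:**
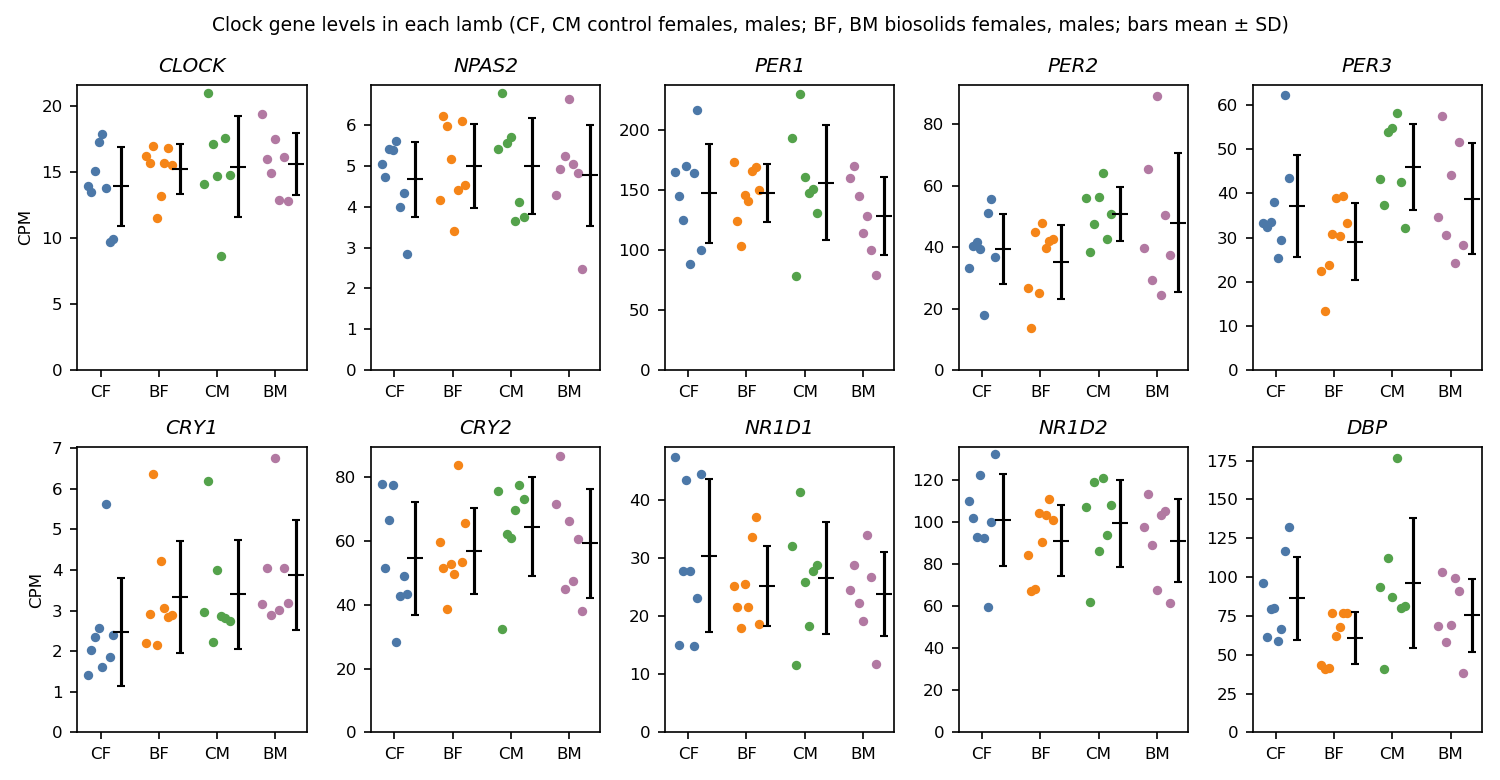
TMM-scaled CPM (vertical axis, from 0) of each clock gene in each lamb by group, 1 point per lamb, with bars for the group mean and SD. The 4 groups overlap for all 10 genes, and the highest single DBP value, 177 CPM, is the library labelled control male 8408.

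None of the 10 clock genes was called in any of 6 comparisons by edgeR's quasi-likelihood test at a Benjamini-Hochberg adjusted p under 0.05 over all 17840 genes. For exposure in females, in males, in both sexes together and for the interaction of exposure with sex, the share of all genes called was 0.0%. It was 0.0841% (15 genes) for sex in controls and 0.0953% (17 genes) for sex in biosolids lambs. At an unadjusted p under 0.05, DBP was the only clock gene to pass, in females and in both sexes together, where 3.65% and 4.3% of all genes passed. The other unadjusted shares over all genes were 5.44% for exposure in males, 3.63% for the interaction, 18.9% for sex in controls and 4.85% for sex in biosolids lambs, with 0 clock genes in each. DESeq2 and limma voom also called 0 clock genes. Over all genes DESeq2 called 0 for exposure in females, 4 in males, 4 in both sexes and 1 for the interaction, and limma voom 0 in each.

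DBP, the output factor (chr14:55025916-55032106, minus strand, assembly ARS-UI_Ramb_v3.0), ranged in control females from 58.7 CPM over a median of 79.5 to 132 CPM. In biosolids females it ranged from 40.9 over 65.0 to 77.2 CPM, so that all 8 lay below the control median although the groups overlapped. How many of all genes show such one-sided counts was not counted, here or for the other clock genes. The log2 fold change in females was -0.51 ± 0.23 (SE), with an edgeR p of 0.0371 that became an adjusted p of 1.0.

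In males DBP ranged from 40.8 over 87.3 to 177 CPM in controls and from 38.3 over 69.0 to 103 CPM in biosolids lambs, so the biosolids range lay inside the control range apart from its lowest lamb, 8778. The male log2 fold change was -0.35 ± 0.25 (edgeR adjusted p = 0.827). It was -0.13 without the library labelled control male 8408 and -0.02 without all 3 libraries that stand apart. The female value stayed between -0.51 and -0.56 in those fits. Over both sexes it was -0.43 ± 0.17, with an edgeR p of 0.0177 and an adjusted p of 0.943. It no longer passed the unadjusted threshold without the library labelled control male 8408, at -0.32 with an edgeR p of 0.0555, or without the 3 libraries, at -0.29 with an edgeR p of 0.0647. The difference between the male and the female effect was 0.16 ± 0.34, smaller than its error.

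Among the period genes, which encode repressors, PER3 (chr12:44896108-44967399, minus strand) had a lower median in the exposed group of each sex. In females it ranged from 25.3 over 33.4 to 62.2 CPM in controls and from 13.4 over 30.6 to 39.4 CPM in biosolids lambs. In males it ranged from 32.2 over 43.2 to 58.2 CPM in controls and from 24.3 over 34.7 to 57.4 CPM in biosolids lambs. The groups overlapped in both sexes, and the log2 fold changes of exposure were -0.35 ± 0.20 in females and -0.24 ± 0.22 in males (edgeR adjusted p = 1.0 and 0.839). Biosolids males had more PER3 than biosolids females by 0.42 ± 0.21 on the log2 scale (edgeR adjusted p = 0.969).

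PER2 (chr1:3041080-3080843, plus strand) showed the largest ratio of highest to lowest lamb of the 10, 6.56-fold. It ran from 13.6 CPM in biosolids female 8649 to 89.2 CPM in biosolids male 8762. Its median was 39.9 CPM in control females, 40.9 in biosolids females, 50.9 in control males and 39.8 in biosolids males. The exposure log2 fold changes were -0.16 ± 0.24 in females and -0.08 ± 0.26 in males, both smaller than their errors. Males exceeded females by 0.36 ± 0.25 in controls and by 0.45 ± 0.25 in biosolids lambs (edgeR adjusted p = 0.395 and 0.969).

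PER1 (chr11:27595435-27610809, minus strand), the period gene that glucocorticoids induce, had nearly equal means of 147 ± 41.3 CPM in 8 control females and 147 ± 24.1 CPM in 8 biosolids females. Its female log2 fold change was -0.001 ± 0.19. In males it ranged from 78.3 over 151 to 230 CPM in controls and from 79.2 over 128 to 170 CPM in biosolids lambs, a log2 fold change of -0.28 ± 0.20 (edgeR adjusted p = 0.827). The lowest lamb of each male group, control 8364 and biosolids 8778, was also the lowest of that group in NR1D1.

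The cryptochromes CRY1 and CRY2 encode the partners of the PER proteins. CRY1 (chr3:175857513-175967700, minus strand) was present at 1.42 over 2.19 to 5.63 CPM in control females and at 2.15 over 2.91 to 6.35 CPM in biosolids females, where 7 of 8 lay above the control median. In males it ranged from 2.23 over 2.87 to 6.18 CPM in controls and from 2.89 over 3.19 to 6.75 CPM in biosolids lambs, with 7 of 7 above the control median. The lowest of these, at 2.89 CPM, barely exceeded that median of 2.87 CPM, and lamb 8778, at 3.19 CPM, had 9 counts. The highest lamb of each group, between 5.63 and 6.75 CPM, lay far above its median, and the groups overlapped. The log2 fold changes of exposure were 0.42 ± 0.27 in females and 0.20 ± 0.29 in males (edgeR adjusted p = 1.0 and 0.883). Control males exceeded control females by 0.45 ± 0.27 (edgeR adjusted p = 0.338).

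CRY2 (chr15:74809518-74844441, plus strand) had medians of 50.3 CPM in control females, 53.1 in biosolids females, 69.6 in control males and 60.5 in biosolids males. Its exposure log2 fold changes were 0.06 ± 0.20 in females and -0.11 ± 0.21 in males, both smaller than their errors. Within control males 6 lambs lay above the control female median and lamb 8364 far below it, at 32.3 CPM.

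NR1D1 (chr11:40142119-40149008, minus strand), the heme receptor REV-ERB alpha, spanned 14.8 over 27.7 to 47.3 CPM in control females and 18.0 over 23.4 to 37.1 CPM in biosolids females. In males it spanned 11.5 over 27.7 to 41.3 CPM in controls and 11.7 over 24.4 to 34.0 CPM in biosolids lambs. The biosolids range lay inside the control range in both sexes. The log2 fold changes were -0.28 ± 0.25 in females and -0.14 ± 0.27 in males (edgeR adjusted p = 1.0 and 0.919). Of the 1851 exonic bases of NR1D1, 200 lie opposite exons of THRA, the thyroid hormone receptor alpha gene, which stood at 58.3 to 231 CPM. The strand setting of the counting is not stated in the labels or notes. The levels of NR1D1 and THRA correlated at r = 0.65 over the 30 lambs, where 11.4% of all genes reached an absolute r of 0.48 with NR1D1. Whether reads of THRA entered the NR1D1 counts was not tested.

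NR1D2 (chr26:41310424-41339776, minus strand), REV-ERB beta, had the smallest ratio of highest to lowest lamb of the 10 genes, 2.22-fold. It lay from 59.6 over 101 to 132 CPM in control females and from 67.2 over 95.7 to 111 CPM in biosolids females. In males it ranged from 61.8 over 107 to 121 CPM in controls and from 61.4 over 97.4 to 113 CPM in biosolids lambs, so all 4 groups overlapped. The exposure log2 fold changes were -0.15 ± 0.16 and -0.12 ± 0.17 in females and males.

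The activators CLOCK and NPAS2 had small fitted differences. CLOCK (chr6:71576812-71700943, minus strand) ranged from 9.69 over 13.8 to 17.9 CPM in control females, 11.5 over 15.7 to 17.0 in biosolids females, 8.67 over 14.8 to 21.0 in control males and 12.8 over 16 to 19.4 CPM in biosolids males. Its log2 fold changes of exposure were 0.13 ± 0.14 in females and 0.03 ± 0.15 in males. NPAS2 (chr3:100485677-100690430, minus strand) ranged from 2.85 over 4.89 to 5.62 CPM in control females, 3.40 over 4.85 to 6.22 in biosolids females, 3.66 over 5.42 to 6.78 in control males and 2.48 over 4.92 to 6.63 CPM in biosolids males. Its log2 fold changes were 0.10 ± 0.17 and -0.03 ± 0.18, and the lowest value is the 7 counts of lamb 8778. An antisense transcript, LOC105614674, shares 11.1% of the exonic bases of NPAS2 and reached at most 0.809 CPM.

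**Figure D2:**
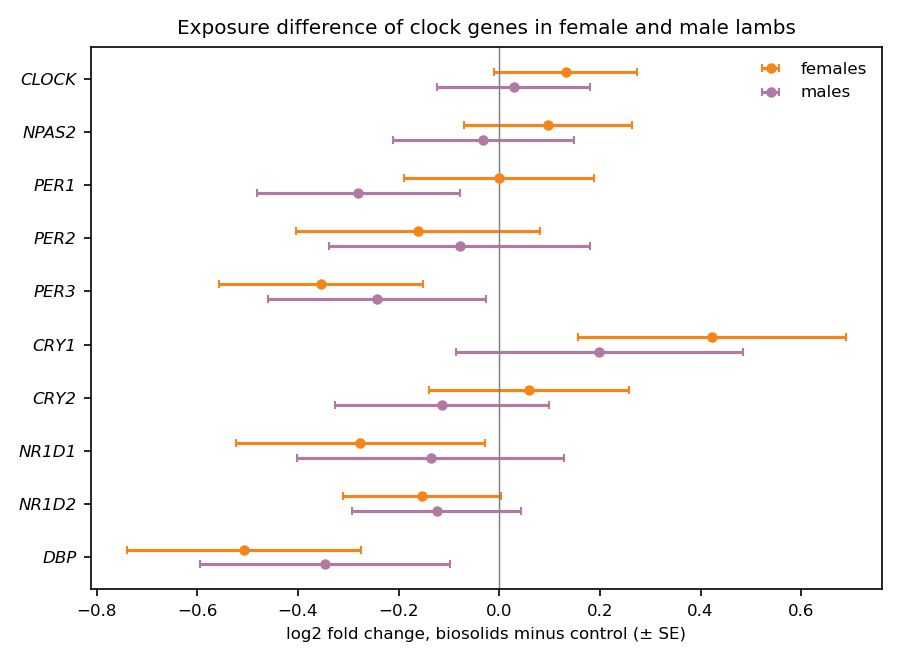
Log2 fold change of each clock gene (horizontal axis, biosolids minus control) in females and males, with bars of 1 standard error from edgeR. DBP in females lies farthest from 0 at -0.51, and no gene passed the adjusted threshold.

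Counted without regard to any test, 6 of the 10 fitted values were below 0 for exposure in females (median -0.08), 8 of 10 in males (median -0.12) and 7 of 10 in both sexes together (median -0.13). Over all genes the medians were -0.02, 0.01 and -0.00, with 45.9%, 51.3% and 48.9% of genes above 0. The 2 clock genes above 0 in males were CLOCK and CRY1. Without the 3 libraries that stand apart CLOCK turned to -0.04, while PER2 and NR1D2 turned to 0.03 and 0.001.

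Of 20 further clock genes tested out of 22 listed, which include BMAL1, the ROR activators, the kinases and ubiquitin ligases of the PER proteins and the PAR-bZIP factors TEF and HLF, 0 were called in any of the 6 comparisons. For exposure in females the smallest p values belonged to CIART, a repressor of CLOCK and BMAL1, at -0.61 ± 0.37, and to BMAL1 at 0.38 ± 0.24 (edgeR adjusted p = 1.0 for both). For exposure in males they belonged to SIRT1, the NAD-dependent deacetylase, at 0.20 ± 0.10, and SKP1, a subunit of the ligases that degrade CRY and PER, at 0.41 ± 0.22 (edgeR adjusted p = 0.816 for both). Among 11 tested clock output genes of 15 listed, NAMPT, the enzyme of NAD salvage, had the smallest female p at -0.50 ± 0.14 (edgeR adjusted p = 0.95), followed by WEE1, a cell cycle kinase under clock control, at -0.37 ± 0.16 (adjusted p = 1.0). The highest NAMPT value among control females, 31.7 CPM over a median of 18.9, was that of 8263. A fit of NAMPT without this library is not reported here. In males NAMPT was at 0.11 ± 0.16 and the smallest p values were those of ALAS1, the first enzyme of heme synthesis, at -0.53 ± 0.25, and TSPAN4 at -0.26 ± 0.16 (edgeR adjusted p = 0.816 for both). No output gene was called.

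The 12 glucocorticoid and fasting genes, measured because both can act on PER1, had fitted exposure values above 0 for 10 genes in females (median 0.23) and below 0 for 11 in males (median -0.24), with 0 called in either sex or for the interaction. At an unadjusted p under 0.05, 5 of the 12 passed for the interaction, against 3.63% of all genes. ZBTB16, a glucocorticoid-induced transcription factor, was at 0.52 ± 0.23 in females and -0.32 ± 0.25 in males. TSC22D3, which encodes GILZ, was at 0.25 ± 0.10 in females and -0.24 ± 0.11 in males. The adjusted p of edgeR was 1.0 in females for both, and 0.829 and 0.816 in males. The smallest p values in males were those of DUSP1, a phosphatase that inactivates MAP kinases, at -0.68 ± 0.27, and ANGPTL4, an inhibitor of lipoprotein lipase, at -0.57 ± 0.24 (edgeR adjusted p = 0.816 for both). Lamb 8778 was the lowest biosolids male in DUSP1 and TSC22D3, at 12.1 and 49.7 CPM. The library labelled control male 8408 was the highest control male in TSC22D3, at 100 CPM, but the lowest in ZBTB16, at 79.6 CPM. Fits of these genes, and the interaction count, without those libraries are not reported here. PER1 itself was at -0.001 ± 0.19 and -0.28 ± 0.20. Of the 6 tested temperature and heat shock genes of 8 listed, 0 were called, and CIRBP, the cold-inducible RNA-binding protein, was at -0.16 ± 0.12 in females and 0.18 ± 0.13 in males, with HSPA5 in females and HSPB1 in males next at 0.23 ± 0.30 and -0.18 ± 0.16.

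The median spread between lambs of 1 group was near that of all genes and above that of genes averaging at least 1 CPM. The within-group SD of log2 CPM was 0.55 for NR1D1, 0.53 for PER2, 0.51 for CRY1, 0.50 for DBP, 0.43 for PER3, 0.42 for CRY2, 0.40 for PER1, 0.35 for NPAS2, 0.33 for NR1D2 and 0.29 for CLOCK. The median of the 10 was 0.43, beside 0.42 over all 17840 genes and 0.36 over the 14344 genes with a mean of at least 1 CPM. Between the highest and the lowest of the 30 lambs, PER2 differed 6.56-fold, CRY1 4.77-fold, PER3 4.63-fold, DBP 4.62-fold and NR1D1 4.13-fold. CRY2, PER1, NPAS2, CLOCK and NR1D2 differed 3.07-, 2.93-, 2.73-, 2.42- and 2.22-fold.

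All 45 pairs of the 10 genes were correlated over the 30 lambs on log2 CPM, with two-sided permutation p-values adjusted over the 45 relations. Of these, 20 had an adjusted p under 0.05, 17 of them positive and 3 negative, and 16 kept the same sign in all 4 groups. By Spearman's rho 11 passed. The weakest of the 20 had an absolute r of 0.42, and 18.6% of all relations between a clock gene and any other gene were at least that strong. This share was 36.9% for CRY2 and 27.2% for DBP, but 5.99% for NPAS2 and 3.38% for CRY1, so a correlation of a given size is common for some of these genes and uncommon for others. Leaving out single lambs with the scaling kept, 11 passed without control male 8364 and 14 without either control male 8382 or 8778. With the remaining libraries filtered and scaled anew, 9 passed without 8778 and 10 without the 3 libraries that stand apart. Of the 20 pairs, 7 (6 positive, 1 negative) also passed without each and all of the 3 libraries and with any 1 lamb left out. CRY1 with NR1D1, a negative pair, passed without each and all of the 3 libraries too. With single lambs left out it passed in 29 of 30 cases.

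The strongest pair was PER2 with PER3, at r = 0.79 (rho = 0.71, permutation p = 2e-05, adjusted p = 0.000225). It was 0.68 without the 2 lambs farthest from the PER2 median, and 0.55 to 0.83 within the 4 groups. NR1D2 with DBP gave r = 0.78 (rho = 0.77, permutation p = 1e-05, the smallest that 100000 resamples can give, adjusted p = 0.000225), and 0.79 without the 2 farthest lambs. NR1D1 with NR1D2 gave r = 0.75 (rho = 0.73, permutation p = 1e-05, adjusted p = 0.000225), and 0.65 without the 2 farthest. The paralogous receptors thus rose and fell together, from 0.64 in biosolids females to 0.91 in biosolids males.

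PER3 with DBP gave r = 0.71 (rho = 0.71, permutation p = 2e-05, adjusted p = 0.000225), and 0.66 without the 2 farthest lambs. PER1 with CRY2 gave r = 0.62 (rho = 0.56, permutation p = 0.00025, adjusted p = 0.00225), and 0.49 without the 2 farthest. The activators CLOCK and NPAS2 varied together at r = 0.55 (rho = 0.51, permutation p = 0.00167, adjusted p = 0.0107), and 0.56 without the 2 farthest. NR1D1 with DBP gave r = 0.54 (rho = 0.60, permutation p = 0.00214, adjusted p = 0.0107), which fell to 0.38 without the 2 farthest lambs, and without 8778 the value was 0.46 (adjusted p = 0.0538).

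The 3 negative pairs were CRY1 with NR1D2 at r = -0.59, CLOCK with DBP at -0.54 and CRY1 with NR1D1 at -0.51. CRY1 with NR1D2 (rho = -0.44, permutation p = 0.00068, adjusted p = 0.0051) stayed at -0.49 without the 2 farthest lambs and was negative in all 4 groups, but its rho had an adjusted p of 0.0565 and did not pass. CRY1 with NR1D1 (rho = -0.43, permutation p = 0.00378, adjusted p = 0.0155) was -0.48 without the 2 farthest, and -0.10 within biosolids males. Its rho did not pass either (adjusted p = 0.0565), nor did that of CLOCK with DBP (adjusted p = 0.168). CLOCK with DBP (rho = -0.33, permutation p = 0.00196, adjusted p = 0.0107) was -0.33 without the 2 farthest, and -0.40 (adjusted p = 0.0713) without the library labelled control male 8408. PER2 and CRY1 correlated positively at r = 0.45 (rho = 0.40, permutation p = 0.013, adjusted p = 0.0342), also 0.45 without the 2 farthest lambs, but were at -0.42 within control males, and the rho had an adjusted p of 0.0759.

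**Figure D3:**
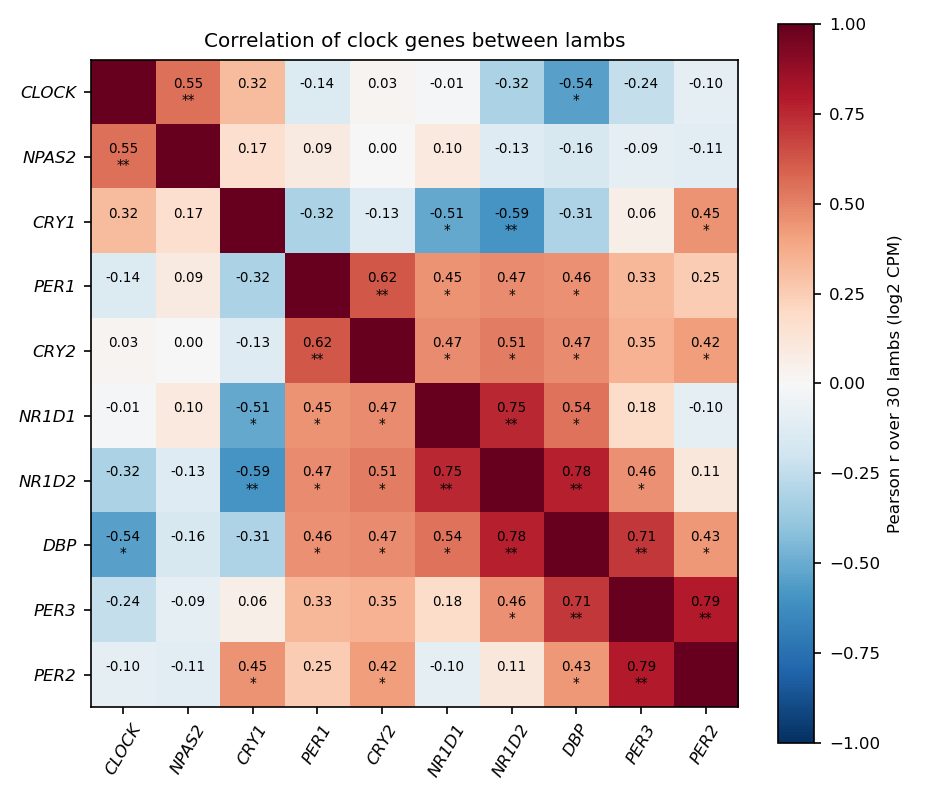
Pearson r of log2 CPM for each pair of clock genes over 30 lambs, shown by colour, where 1 star marks an adjusted permutation p under 0.05. Double stars mark the 7 that also passed without each and all of the libraries that stand apart and with any 1 lamb left out. PER2 with PER3 has the highest r, 0.79, and CRY1 with NR1D2 the lowest, -0.59, while NR1D1 with NPAS2 is at 0.10.

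NR1D1 and NPAS2, which run in opposite phase in a cycling liver, were not opposed across these lambs. Their r was 0.10 (rho = 0.07, permutation p = 0.587, adjusted p = 0.681), with 0.04 without the 2 farthest lambs, and -0.03, 0.08, -0.20 and 0.63 in control females, biosolids females, control males and biosolids males. Lamb 8778 carried the low end of both genes, at 11.7 CPM NR1D1 and 2.48 CPM NPAS2. Without it r was -0.14 (adjusted p = 0.531), and without the 3 libraries -0.22 (adjusted p = 0.368). NR1D1 with CLOCK gave r = -0.01 (rho = 0.08, permutation p = 0.95, adjusted p = 0.971).

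Of the genes on the other lists, BMAL1 had the most negative r with NR1D1. It is the partner of CLOCK and NPAS2 and a direct REV-ERB target, and is not among the 10. Their r was -0.62 (rho = -0.38, permutation p = 0.00029, adjusted p = 0.00882 over 147 relations), and -0.46 without the 2 lambs farthest from the NR1D1 median. The rho alone had an adjusted p of 0.214. The relation was -0.58 without 8778 and -0.69 without the 3 libraries. At the low end of NR1D1 stood control male 8364, with 11.5 CPM NR1D1 and 21.5 CPM BMAL1, and biosolids male 8778, with 11.7 and 17.7 CPM. At the high end stood control female 8245, with 47.3 CPM NR1D1 and 4.12 CPM BMAL1, and control female 8378, with 44.4 and 4.77 CPM. These lambs held the 2 highest and the 2 lowest BMAL1 values of the 30.

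**Figure D4:**
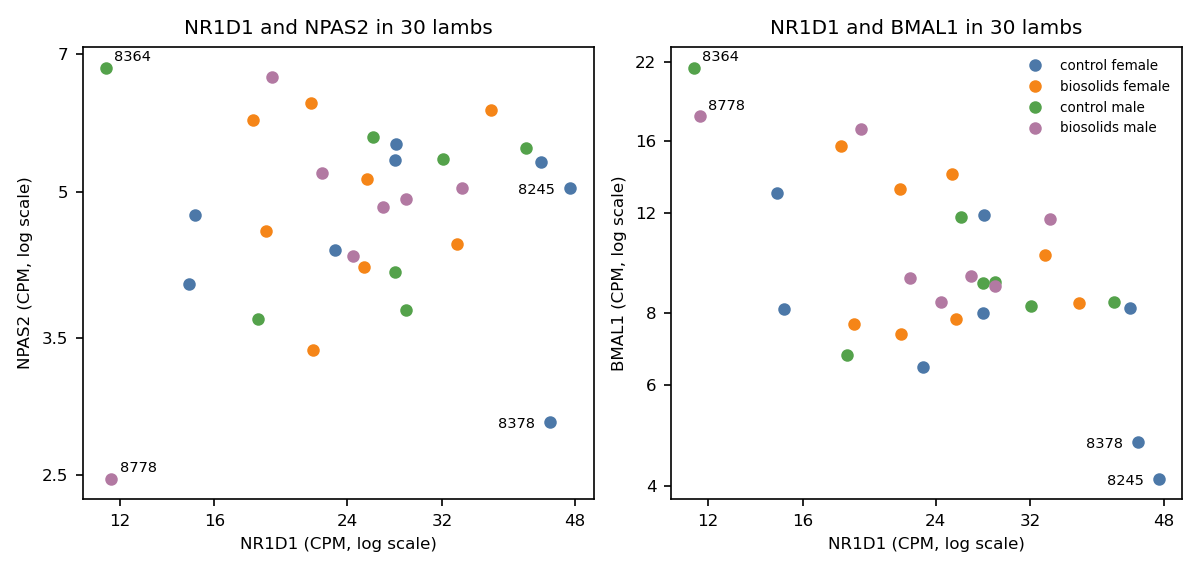
NR1D1 (horizontal) against NPAS2 (left) and BMAL1 (right), in CPM on log axes, 1 point per lamb coloured by group, with 4 lambs named by tag. NPAS2 shows no slope (r = 0.10), while BMAL1 falls from 21.5 CPM in lamb 8364 to 4.12 CPM in lamb 8245 (r = -0.62).

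Ordered by log2 NR1D1 minus log2 NPAS2, used here as a description with no test, the lambs ran from 0.75 in control male 8364 to 3.94 in control female 8378, with 2.38 ± 0.60 over all (mean ± SD, n = 30). The means were 2.59 ± 0.75 in control females, 2.30 ± 0.47 in biosolids females, 2.33 ± 0.75 in control males and 2.29 ± 0.40 in biosolids males. All 4 groups overlapped, and both ends of the order were control lambs. Lamb 8364 had the lowest NR1D1 and PER1 and the highest CLOCK, NPAS2 and BMAL1 of the 30, and its library had the lowest ribosomal RNA share, 0.299%. Lamb 8378 had the highest NR1D2, at 132 CPM, with 2.85 CPM NPAS2. With no hour of sampling in the labels, a position in the daily cycle could not be assigned to any lamb.

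**Figure D5:**
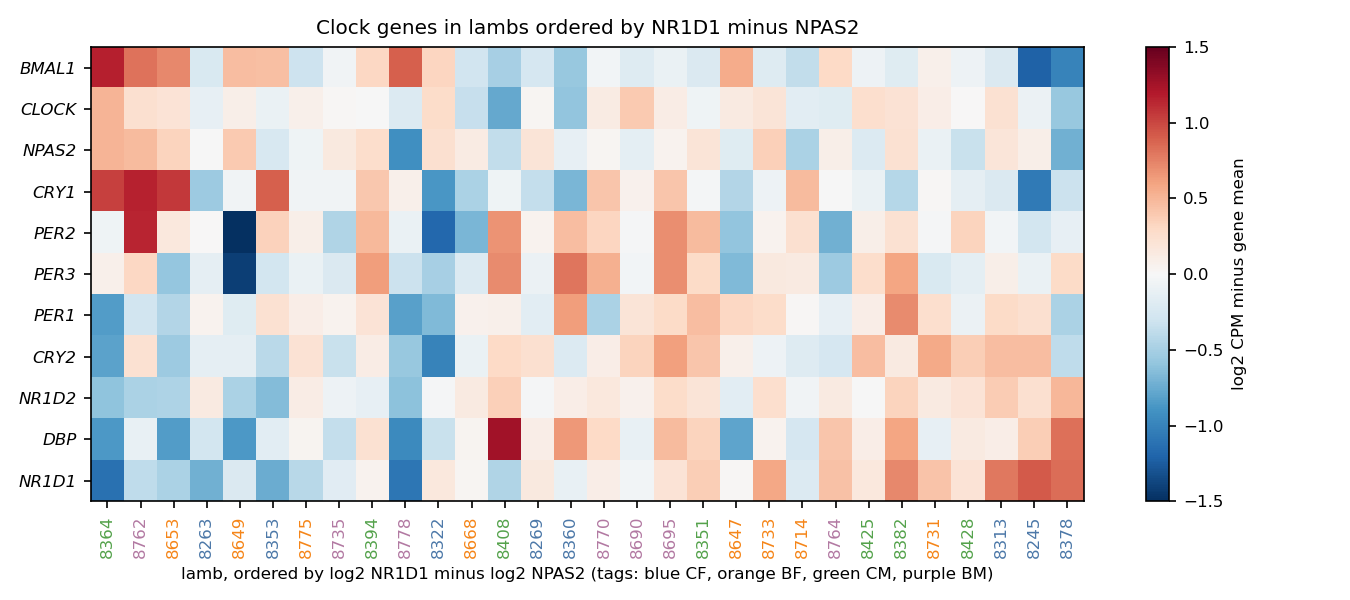
Log2 CPM of BMAL1 and the 10 clock genes minus each gene's mean (colour) in 30 lambs ordered from the lowest to the highest log2 NR1D1 minus log2 NPAS2; tag colours give the group. Control male 8364 (0.75) is at the left end and control female 8378 (3.94) at the right, and lambs of all groups mix between them.

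NR1D1, NPAS2 and PER1 were also correlated with the 49 tested genes of the other lists, 147 relations in all, of which 20 had an adjusted permutation p under 0.05: 12 with NR1D1, 8 with PER1 and 0 with NPAS2. The weakest had an absolute r of 0.48, a size that 11.4% of all genes reached with NR1D1, 8.19% with PER1 and 2.74% with NPAS2. Without lamb 8778, 11 of the 147 passed, and NPAS2 with BMAL1 then did so as well, at r = 0.55 (adjusted p = 0.0456). It was 0.27 with the lamb (adjusted p = 0.352) and 0.53 without all 3 libraries (adjusted p = 0.0605). Without control female 8263, 12 passed.

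NR1D1 rose with both remaining PAR-bZIP factors, HLF at r = 0.62 (rho = 0.55, permutation p = 0.00026, adjusted p = 0.00882) and TEF at 0.56 (rho = 0.53, permutation p = 0.00131, adjusted p = 0.0214), each 0.49 without the 2 farthest lambs. BMAL1, HLF and TEF were the 3 relations of NR1D1 that also passed without each and all of the 3 libraries. NFIL3, a repressor that competes with the PAR-bZIP factors for the same sites, ran against NR1D1 at -0.54 (rho = -0.50, permutation p = 0.00194, adjusted p = 0.0238), -0.42 without the 2 farthest lambs and -0.51 without 8778 (adjusted p = 0.0505). KLF9, a glucocorticoid-induced repressor, gave r = 0.58 (rho = 0.63, permutation p = 0.00072, adjusted p = 0.0151) and 0.60 without the 2 farthest.

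PER1 had 8 relations that passed, of which PPARA, TEF and BMAL1 passed with NR1D1 as well. TAT, the tyrosine aminotransferase induced by glucocorticoids, gave r = 0.64 (rho = 0.61, permutation p = 0.00015, adjusted p = 0.00882) and 0.63 without the 2 farthest lambs. PPARA, the fatty acid receptor of the fasting liver, gave 0.63 (rho = 0.63, permutation p = 0.0002, adjusted p = 0.00882) and 0.60 without them. With NR1D1 the r of PPARA was 0.55 (rho = 0.56, permutation p = 0.00171, adjusted p = 0.0235), and 0.49 without the 2 farthest. ZBTB16 gave 0.57 (rho = 0.64, permutation p = 0.00106, adjusted p = 0.0195) and 0.67 without them.

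PER1 further rose with LPIN1, the phosphatidate phosphatase lipin, at 0.62 (rho = 0.57, permutation p = 0.0003, adjusted p = 0.00882), and with NOCT, the clock-controlled nocturnin, at 0.60 (rho = 0.52, permutation p = 0.00039, adjusted p = 0.00955), which were 0.47 and 0.48 without the 2 farthest. PER1 with TEF gave 0.53 (rho = 0.53, permutation p = 0.00281, adjusted p = 0.0318), and 0.44 without the 2 farthest. PER1 with BMAL1 gave -0.48 (rho = -0.37, permutation p = 0.00674, adjusted p = 0.0495), which was -0.25 without the 2 farthest lambs and -0.40 without 8778 (adjusted p = 0.202). The relations of PER1 with TAT, PPARA, ZBTB16, LPIN1, NOCT and TEF passed without each and all of the 3 libraries as well. With FKBP5, a co-chaperone induced by glucocorticoids, PER1 gave 0.34 (rho = 0.30, permutation p = 0.0671, adjusted p = 0.222). With NR1D1 the r of FKBP5 was -0.05 (rho = -0.04, permutation p = 0.811, adjusted p = 0.889).

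Some clock genes moved with markers of liver cell types or with library measures, in 6 of 90 relations by Pearson's r tested by permutation. Each set of markers entered as its mean log2 CPM. The hepatocyte markers correlated with NR1D2 at r = 0.60 (rho = 0.67, permutation p = 0.00051, adjusted p = 0.0133). They gave 0.59 with DBP (rho = 0.59, permutation p = 0.00059, adjusted p = 0.0133). With NR1D1 they gave 0.53 (rho = 0.53, permutation p = 0.00279, adjusted p = 0.0418). These 3 genes also correlated with each other. NPAS2 correlated with the stellate cell and fibroblast markers, 5 of 5 measured, at 0.63 (rho = 0.58, permutation p = 0.00015, adjusted p = 0.0072). With the ribosomal RNA share NPAS2 gave -0.55 (rho = -0.43, permutation p = 0.00016, adjusted p = 0.0072), and -0.46 without lamb 8778. CRY1 correlated with the 5 lymphocyte markers at -0.56 (rho = -0.62, permutation p = 0.0012, adjusted p = 0.0216). The r without the 2 farthest lambs were 0.47, 0.52 and 0.51 for the hepatocyte markers in that order, 0.53 and -0.45 for NPAS2, and -0.58 for CRY1. Without 8778 they were 0.55, 0.55 and 0.46 for the hepatocyte markers in the same order. NPAS2 with the stellate markers was then at 0.54 and CRY1 with the lymphocyte markers at -0.57. By rho alone, CLOCK passed with the ribosomal RNA share (rho = -0.63, permutation p = 0.00024, adjusted p = 0.0087). Its r was -0.20 over all lambs and -0.61 without 8778. CRY2 passed by rho with log2 counts outside ribosomal RNA (rho = 0.52, permutation p = 0.00329, adjusted p = 0.0423). Without 8778, whose TMM factor was 0.151, r with the log2 TMM factor ran from -0.13 for NPAS2 to -0.59 for PER2. PER3 and CRY2 were both at -0.58. The stellate markers summed to 130 to 269 CPM in control females and 307 to 507 CPM in control males. They summed to 155 to 538 and 105 to 463 CPM in biosolids females and males. The collagens COL1A1, COL1A2 and COL3A1 differed by 1.19 ± 0.36, 1.14 ± 0.32 and 0.98 ± 0.26 between control males and females. DCN and LUM were at 0.07 ± 0.24 and 0.08 ± 0.49. Of the 5, 0 were called and 3 passed an unadjusted edgeR p under 0.05, as did 18.9% of all genes. How many of all genes separate the control sexes was not counted. How many of all genes correlate as strongly with these markers and library measures was not counted. The part of cell types and library measures in the levels of the clock genes was not tested.

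Ranked by r of group-centred log2 CPM among the 12046 genes that have a symbol and average 1 CPM or more, those most like NR1D1 were TMEM94 (0.80), GPRC5A (0.79), SLIT3 (0.79), ATP1B2 (0.79) and FBXO21 (0.77). The genes at the other end were PNO1 (-0.79), STX17 (-0.77), TRA2A (-0.77), IRAK4 (-0.76) and PAK1IP1 (-0.75). Its paralogue NR1D2 came at rank 16 and DBP at rank 895, while BMAL1 came at rank 11696. For NPAS2 the leading genes included ELP6 (0.70), KCNMB1 (0.68), PDE3A (0.67) and PLCD3 (0.67). The lowest included PMM1 (-0.66), FUNDC1 (-0.65), ZNF385A (-0.64) and PHYH (-0.63). CLOCK came at rank 75 for NPAS2. These values are a description over 30 lambs that share libraries, depth and scaling.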

How the data were processed

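Liver RNA of 30 lambs was analysed from the gene counts deposited by the authors, which are whole numbers and not normalized. Per the labels' protocols, frozen liver was used and TruSeq RNA libraries were run on a NovaSeq S4 flow cell. The tools that the submitters' processing notes name are featureCounts 1.5.0-p3, STAR, Trimmomatic, MultiQC and FastQC, and they leave out strand setting and build. Start and end of all 28862 genes matched by symbol were those of RefSeq assembly ARS-UI_Ramb_v3.0, whose coordinates are given. Pieces of 7 genes broken over 25 lines were joined, and 0 columns were left without a lamb.

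The model was fitted with edgeR 4.0.16 in R 4.3.3: filterByExpr, TMM scaling, and a robust quasi-likelihood fit with a mean for each of 4 groups (26 residual degrees of freedom, biological coefficient of variation 35.2%). P-values were adjusted by Benjamini-Hochberg over all 17840 genes and called under 0.05. Differences are biosolids minus control and males minus females. CPM use TMM-scaled library sizes, and log2 CPM a prior count of 2. Correlations used 100000 permutations, and the r without 2 lambs drops those farthest from the median of the gene on the x axis. That is the first of a pair in the order CLOCK, NPAS2, PER1, PER2, PER3, CRY1, CRY2, NR1D1, NR1D2, DBP, and otherwise NR1D1, NPAS2, PER1 or the marker's clock gene.

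Alternatives were RLE scaling, DESeq2 1.42.0, limma 3.58.1 voom with quality weights, no filter, at least 1 CPM in 15 libraries, no ribosomal RNA rows, a prior count of 0.5, fits within the groups compared, group-centred values, and fits without lambs 8778 or 8263. Fits without 8408 or all 3, leaving out each lamb, and relations with markers and library measures were added after the data were seen. The tests were checked on simulated data.

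The clock genes, lists and tests were chosen with earlier results of these data known. Named were all 10 genes, for exposure the 2 smallest p values of each list, fixed pairs of NR1D1, NPAS2, CLOCK, DBP and PER3, the 5 pairs with the smallest p, and the 5 genes most and least like NR1D1 and NPAS2, some of which are not reported here. Other pairs, the list genes correlated with NR1D1 and PER1, and values of list genes in the other sex were named after their values were seen.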

Additional observations from a re-analysis of the deposited data

Results flagged for a closer look

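In 5 of 40 combinations of a clock gene and a group, a single lamb lay far from the others, by Dixon's ratio of its gap to the range of the group at the 95% critical value. Chance flags about 5% of such groups.

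Of the repressors, CRY1 had a high lamb in 2 groups. Control female 8353 had 5.63 CPM (ratio 0.569) and biosolids male 8762 had 6.75 CPM (ratio 0.602). The same control female was low in NR1D2, at 59.6 CPM (ratio 0.547). PER2 was low in control female 8322, at 17.8 CPM (ratio 0.551). CRY2 was low in control male 8364, at 32.3 CPM (ratio 0.725), the lamb with the lowest NR1D1 and the highest BMAL1 of the 30.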

How the results depend on the processing

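No paired analysis was possible because the groups share no replicate numbers. No clock gene was called for exposure, sex or their interaction in any alternative fit. Of fitted values with a changed sign, all were small beside their errors. PER1 in females was 0.004 (1 CPM filter), 0.003 (groups compared only), 0.010 (voom), 0.008 (no filter), 0.002 (without 8778) and 0.006 (no ribosomal RNA). Voom gave -0.014 for CRY2 in females, 0.037 for NPAS2 in males, 0.024 for NR1D2 by sex in controls and 0.123 for NR1D1 by sex in biosolids lambs. Without 8778, NPAS2 in males was 0.044, CRY2 over both sexes 0.014, and NPAS2 and NR1D1 by sex in biosolids lambs 0.030 and 0.026. Without the library labelled control male 8408, CLOCK in males was -0.073 and DBP by sex in controls -0.063. Without all 3 libraries, CLOCK, PER2 and NR1D2 in males were -0.037, 0.031 and 0.001, CRY2 over both sexes 0.018, DBP by sex in controls -0.13, and NPAS2 and NR1D1 by sex in biosolids lambs 0.030 and 0.026. NR1D2 by sex in biosolids lambs was -0.008 (1 CPM filter), -0.001 (groups compared only and without 8263) and -0.007 (no ribosomal RNA). NPAS2 with NR1D1 was -0.14 without 8778 and -0.22 without the 3 libraries, and CLOCK with NR1D1 was 0.04 on group-centred values.

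The 20 pairs of clock genes that passed fell to 9 without 8778 and 10 without the 3 libraries. When each lamb was left out in turn without rescaling, 11 to 20 passed (11 without 8364, 14 without either 8382 or 8778). Of the 147 relations with other lists 20 passed, against 11 without 8778 (1 of them, NPAS2 with BMAL1, not among the 20), 12 without 8263 and 11 without the 3 libraries. The cause was not tested. DESeq2 called 4 genes for exposure in males, 4 over both sexes and 1 for the interaction, none a clock gene, and for sex in controls the calls ran from 3 (1 CPM filter) to 64 (voom) over all genes, with 54 by DESeq2. Depth limits CRY1 and NPAS2 in lamb 8778, at 9 and 7 counts.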
